A study of Homo sapiens with 12 samples.

Results

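The zinc-finger genes of chromosome 19 are 193 protein-coding genes whose symbol is ZNF followed by a number. Chromosome 19 held 247 such genes in the deposited table of 78892 genes. They were chosen by symbol, chromosome and their summed counts, which had to reach 100 over the 12 libraries. The other 54 had fewer, and 20 of them had no count at all. ZNF470, ZNF486 and ZNF154 lay just inside that limit, with 108, 145 and 155 counts, and ZNF230, ZNF20 and ZNF709 just outside it, with 97, 96 and 95.

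The cells were OCI-Ly7, an established line of diffuse large B-cell lymphoma, and poly(A) RNA was sequenced on day 5 in 4 groups of 3 libraries. Vehicle cells received neither drug. Cells of the HDAC3i group received 15 µM of an inhibitor of histone deacetylase HDAC3 on day 2 and day 4, and cells of the AZA group 100 nM of 5-azacitidine every day from day 0 to day 4. The fourth group received both drugs on the same days and is called the combination below. HDAC3 is the deacetylase of the NCoR and SMRT corepressor complexes. The cytidine analogue 5-azacitidine is built into RNA and DNA, where it traps DNA methyltransferases. All groups come from 1 cell line. Nothing in the labels states that replicates were grown as separate cultures, so the p-values reflect only how far these libraries scatter, and that scatter may be technical.

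Most zinc-finger genes of chromosome 19 encode a KRAB domain followed by a row of C2H2 zinc fingers. The fingers bind DNA, often within transposable elements, and the KRAB domain recruits the corepressor TRIM28, which brings the histone methyltransferase SETDB1, HP1 proteins and the NuRD complex. The genes arose by tandem duplication, lie in clusters, and are themselves covered by H3K9me3 over their finger exons, where ZNF274 recruits SETDB1.

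Searching the translated reading frames for a KRAB pattern found it in 160 of the 193 genes. The median gene had 12 zinc fingers, with ZNF91 at 31 fingers and ZNF738 at 0 by the pattern used. The transcripts were poor in G and C. The median GC content was 44.3% in these genes and 49.4% over all genes tested that had a value, with a range of 34.3% to 71.0%. The 160 genes with a KRAB pattern had a median GC content of 43.8%, and the 33 without one had 61.5%. Divided wherever neighbours were more than 2 Mb apart, the genes formed 5 clusters of more than 3 genes. One held 33 genes from 7.07 to 12.64 Mb, another 29 genes from 19.67 to 24.13 Mb, another 27 genes from 34.68 to 37.82 Mb, another 16 genes from 39.98 to 45.08 Mb, and the last 83 genes from 50.03 to 58.48 Mb (GRCh38). The group of 29 genes lies beside the centromere and is called the pericentromeric cluster. Its median GC content was 40.0%, and 28 of its genes had a KRAB pattern. It was chosen for a closer description after its values were seen.

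The genes of the pericentromeric cluster shared more than their reading frames. RefSeq (GRCh38.p14) gave a promoter window, 250 bases before to 50 bases after the start, for 175 of the 193 genes and for 26 of the 29 pericentromeric ones. The 10-base run TCCAATCAGG, which contains a CCAAT box, was found on either strand in 24 of these 26 windows (92.3%). It was found in 12 of the 149 windows of the other zinc-finger genes (8.05%), in 0 of 660 windows of other protein-coding genes of the chromosome, and in 0.388% of all 27305 windows. The run CTGTCACTCA was found in 20 of the 26 windows (76.9%), in 8 of the 149 (5.37%), in 1 of the 660 and in 0.385% of all windows. Both runs were picked because they were frequent in these windows, so the shares describe the cluster and test nothing. In the pericentromeric windows CTGTCACTCA began 129 to 69 bases before the start, and TCCAATCAGG 88 to 30 bases before it. The 2 runs do not overlap each other.

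The 150 bases before the RefSeq start are shown for 6 pericentromeric genes whose levels are given in the results, and for ZNF627 and ZNF772, which lie in other clusters and rose. Capitals mark the 2 runs on the strand of the gene.
ZNF681, chr19:23758892-23759041, minus strand: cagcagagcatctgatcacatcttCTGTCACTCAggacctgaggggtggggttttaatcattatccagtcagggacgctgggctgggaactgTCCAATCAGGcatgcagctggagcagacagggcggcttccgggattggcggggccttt
ZNF85, chr19:20923101-20923250, plus strand: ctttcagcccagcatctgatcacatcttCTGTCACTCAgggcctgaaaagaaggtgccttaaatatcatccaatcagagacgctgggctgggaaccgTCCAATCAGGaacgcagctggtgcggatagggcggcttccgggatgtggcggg
ZNF100, chr19:21767580-21767729, minus strand: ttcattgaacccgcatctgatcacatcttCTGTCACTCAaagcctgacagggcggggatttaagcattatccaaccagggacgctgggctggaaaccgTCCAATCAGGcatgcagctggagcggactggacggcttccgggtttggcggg
ZNF43, chr19:21836183-21836332, minus strand: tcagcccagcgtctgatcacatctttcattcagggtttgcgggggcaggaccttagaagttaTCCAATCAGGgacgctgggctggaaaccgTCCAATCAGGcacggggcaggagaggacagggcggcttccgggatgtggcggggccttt
ZNF730, chr19:23116875-23117024, plus strand: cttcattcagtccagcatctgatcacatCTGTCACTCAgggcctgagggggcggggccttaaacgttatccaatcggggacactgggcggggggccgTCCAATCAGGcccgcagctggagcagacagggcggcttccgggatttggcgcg
ZNF714, chr19:21082053-21082202, plus strand: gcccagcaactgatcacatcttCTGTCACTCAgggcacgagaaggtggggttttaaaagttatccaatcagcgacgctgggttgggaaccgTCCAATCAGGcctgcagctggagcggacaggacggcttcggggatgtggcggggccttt
ZNF627, chr19:11597333-11597482, plus strand: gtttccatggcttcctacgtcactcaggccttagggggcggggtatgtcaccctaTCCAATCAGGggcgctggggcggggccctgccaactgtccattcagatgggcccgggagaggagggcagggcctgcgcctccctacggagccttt
ZNF772, chr19:57477567-57477716, minus strand: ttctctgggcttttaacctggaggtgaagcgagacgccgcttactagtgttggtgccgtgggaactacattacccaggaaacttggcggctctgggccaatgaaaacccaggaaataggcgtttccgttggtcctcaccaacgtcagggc
ZNF681, ZNF85, ZNF100, ZNF730 and ZNF714 carry both runs in the same order, ZNF43 carries the CCAAT run at 2 places, ZNF627 carries it once, and ZNF772 carries neither. For ZNF43, ZNF730 and ZNF627 the RefSeq start lies well inside the span of the counted gene, and other starts were not examined. A run is a match of letters and not a measured binding site.

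Levels are given in CPM, counts scaled to a common library size. The file header does not settle whether 1 count is a read or a read pair. In vehicle cells the median level of the 193 genes was 5.62 CPM, against 8.15 CPM over all genes tested. The levels ran from 0.184 to 126 CPM, 106 genes reached 5 CPM, and 16 stayed under 1 CPM. Per kb of exon the highest was ZNF146 at 30.4 ± 1.51 CPM (SD, n = 3), a gene made almost wholly of zinc fingers, without a KRAB pattern. ZNF581, ZNF296, ZNF428 and ZNF787 followed at 15.8, 15.3, 11.9 and 10.9 CPM per kb. None of these 5 has a KRAB pattern. The median of the 193 genes was 1.07 CPM per kb.

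Together the genes took 1721 to 1752 CPM in the vehicle libraries, 1586 to 1635 CPM with the inhibitor, 1758 to 1928 CPM with 5-azacitidine and 1520 to 1661 CPM with the combination. The inhibitor libraries lay below all vehicle libraries and the 5-azacitidine libraries above them. As a plain share of counts the inhibitor libraries also lay below all vehicle libraries, but AZA replicate 1, at 0.170%, lay below vehicle replicates 1 and 2, at 0.175% each. The combination overlapped the inhibitor alone. The pericentromeric cluster took 379 to 391 CPM in vehicle, 335 to 347 CPM with the inhibitor, 412 to 459 CPM with 5-azacitidine and 303 to 347 CPM with the combination, in the same order. In bulk RNA, less RNA per cell and fewer cells with that RNA cannot be told apart.

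**Figure D1:**
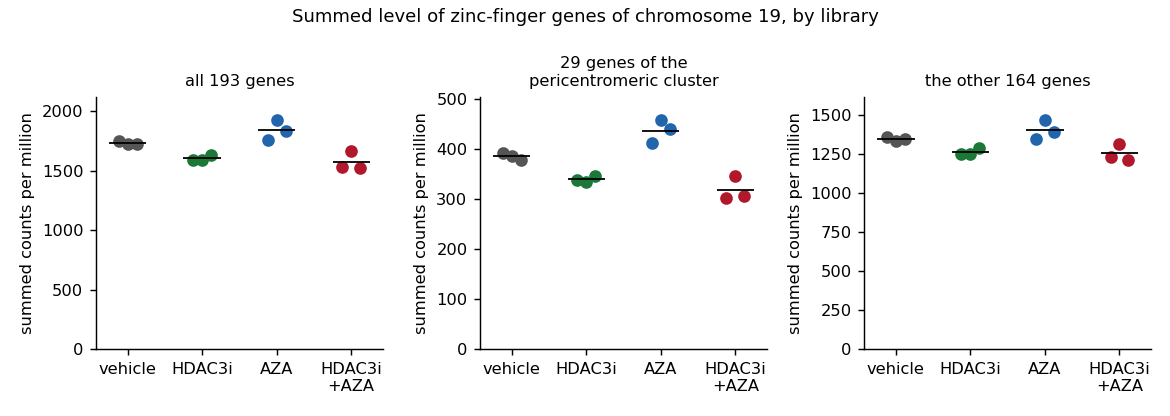
Summed CPM (vertical axis, from 0) of all 193 zinc-finger genes, of the 29 genes of the pericentromeric cluster and of the other 164, by group (horizontal axis). Points are libraries and lines are means of 3; the AZA mean lies highest in each panel (1839 CPM for all 193 genes), and the combination overlaps HDAC3i.

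Library totals ran from 35947872 to 36337086 counts, and every one of the 193 genes passed the filter on low counts. The mitochondrial share of counts was highest in AZA replicate 1, at 13.8% beside 10.01% and 10.25% in the other AZA libraries, and in combination replicate 3, at 15.3%. All 6 B-cell markers checked had counts in every group, and their summed level was 2718 to 2880 CPM in vehicle, 3672 to 3739 with the inhibitor, 2863 to 3075 with 5-azacitidine and 3701 to 3810 with the combination. Of 5 T-cell markers 4 had counts in vehicle, with CD2 at 0. The list summed to 84.8 to 97.1 CPM in vehicle, 241.8 to 250.3 with the inhibitor, 104.6 to 119.5 with 5-azacitidine and 243.1 to 258.7 with the combination. In vehicle CD3D, CD3E and CD3G averaged 0.0188, 1.025 and 0.0926 CPM, so nearly all of the sum came from TRAC, the remaining marker. With the combination these 3 genes averaged 0.368, 9.03 and 2.94 CPM, and TRAC again made up most of the sum. Of 5 monocyte and granulocyte markers 3 had counts in vehicle, with S100A8 and S100A9 at 0, and the list summed to 0.327 to 0.497 CPM there, 1.36 to 2.01 with the inhibitor, 0.136 to 0.380 with 5-azacitidine and 2.63 to 3.28 with the combination. The part of these markers in the results on zinc-finger genes was not tested. In 83 of the 193 genes (43.0%) some library held a fractional count, which comes from reads mapped to several places, against 34.5% of all genes tested. This held for 22 of the 29 pericentromeric genes. The exons of 136 genes overlapped another gene, 92 of them on the opposite strand, and counting did not use strand. Levels of single genes with split reads or overlapping exons are therefore uncertain.

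The HDAC3 inhibitor alone lowered many more of these genes than it raised. It raised 13 of the 193 genes (6.74%), where 26.4% of all genes tested rose, and lowered 44 (22.8%), where 24.9% fell. In all 29.5% of the zinc-finger genes were called and 51.3% of all genes. Their median log2 fold change was -0.098, against 0.00064 over all genes. The share that fell was near the background, and the share that rose was below it. Genes of low level rose often elsewhere: under 5 CPM in vehicle, 34.4% of all genes rose, against 9.20% of the 87 zinc-finger genes at that level. At 5 CPM or more, 4.72% of 106 zinc-finger genes rose and 32.1% fell, against 19.7% and 41.9% of all genes at that level. Vehicle, on which this split is made, is also the control. A gene low in vehicle can pass the filter on low counts through a group where it is higher. Shares by vehicle level, here and below, therefore describe these data and are not a matched background.

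**Figure D2:**
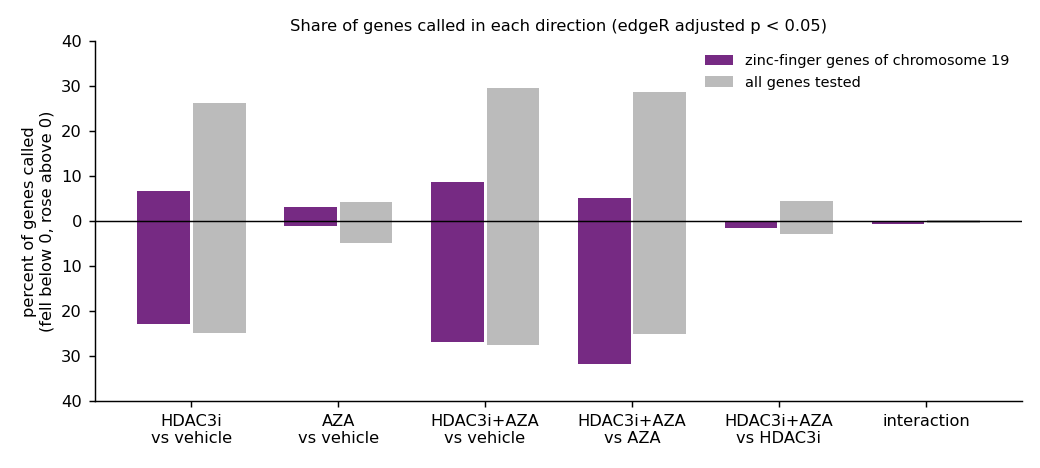
Percent of genes called at an edgeR adjusted p under 0.05 (vertical axis, risers above 0 and fallers below) in 6 comparisons (horizontal axis), for the 193 zinc-finger genes and for all 17869 genes tested. In the comparisons that add the inhibitor, 5.18% to 8.81% of the zinc-finger genes rose against 26.4% to 29.6% of all genes.

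ZNF627 rose with the inhibitor from 7.23, 7.14 and 5.93 CPM in vehicle to 10.5, 11.1 and 10.2 CPM. The groups did not overlap, and the log2 fold change was 0.64 ± 0.10 (SE; adjusted p = 7.65e-06). The exons of ZNF627 (chr19:11559374-11619161, plus strand) overlap those of ACP5 on the other strand. ZNF772 (chr19:57466663-57477570, minus strand) rose from 1.02, 1.31 and 1.41 CPM to 1.97, 2.23 and 2.09 CPM, by 0.75 ± 0.20 on the log2 scale (adjusted p = 0.00241). ZNF419, which lies in the same cluster and encodes a minor histocompatibility antigen, rose by 0.77 ± 0.23 (adjusted p = 0.00543). ZNF540, at 0.607, 0.600 and 0.423 CPM in vehicle, rose by 0.94 ± 0.34 (adjusted p = 0.0206). The adjacent copies ZNF780A and ZNF780B rose by 0.48 ± 0.18 and 0.47 ± 0.14.

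The largest falls with the inhibitor among genes of at least 1 CPM were those of ZNF726, ZNF701, ZNF611, ZNF813, ZNF808 and ZNF805. ZNF726, a pericentromeric gene, went from 5.42, 7.38 and 6.83 CPM in vehicle to 4.40, 3.80 and 3.77 CPM. It fell by 0.71 on the log2 scale, with an SE of 0.14 and an adjusted p of 8.83e-05. ZNF701, ZNF611, ZNF813 and ZNF808 lie in the cluster at the end of the long arm, and fell by 0.58 to 0.69. ZNF808, which silences transposable elements and is needed for pancreas formation, went from 4.64, 4.88 and 4.40 CPM to 3.46, 2.72 and 3.14 CPM. The exons of ZNF701 and ZNF808 overlap each other. ZNF714 (chr19:21082159-21125270, plus strand) went from 38.2, 34.8 and 34.3 CPM to 24.5, 24.6 and 25.4 CPM.

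Some genes were listed for their known roles, when earlier results of these data were already known. Of these, ZNF91, which restrains SVA retrotransposons, fell with the inhibitor from 22.9, 20.4 and 19.6 CPM to 16.7, 17.0 and 17.6 CPM. The log2 fold change was -0.29 ± 0.09 (adjusted p = 0.00609). ZNF93, which restrains L1 retrotransposons, had a log2 fold change of -0.14 ± 0.12 (adjusted p = 0.346) and overlapping groups. ZNF274 had 21.7, 19.9 and 21.9 CPM in vehicle and 23.2, 24.3 and 21.9 CPM with the inhibitor, a log2 fold change of 0.13 ± 0.07 (adjusted p = 0.128). ZNF296 fell by 0.35 with an adjusted p of 0.00432, although 1 inhibitor library at 22.2 CPM lay above the lowest vehicle library at 21.2 CPM. ZNF224, a repressor of aldolase A, was called at the threshold, with 0.42 ± 0.18 (adjusted p = 0.0483), and held that call in 12 of 24 alternative settings.

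With 5-azacitidine alone few of these genes changed. It raised 6 of 193 (3.11%), where 4.31% of all genes rose, and lowered 2 (1.04%), where 4.75% fell, so 4.15% were called against 9.06% of all genes. The median log2 fold change was 0.094, against 0.0021 over all genes, and 129 genes had a value above 0. The risers were ZNF681, ZNF85, ZNF627, ZNF260, ZNF253 and ZNF100, of which 4 lie in the pericentromeric cluster. Of these 6 genes, 5 have split reads and ZNF260 has none.

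ZNF681 (chr19:23739195-23758891, minus strand) had the largest called rise. It stood at 5.88, 5.37 and 5.62 CPM in vehicle and at 7.20, 8.76 and 7.97 CPM with 5-azacitidine, a log2 fold change of 0.51 ± 0.12 (adjusted p = 0.00517). It is also the gene of lowest GC content among the 193, at 34.3%. ZNF85 (chr19:20923222-20950697, plus strand), a KRAB repressor, rose from 13.3, 14.1 and 13.1 CPM to 18.6, 17.9 and 17.6 CPM, by 0.42 ± 0.09 (adjusted p = 0.00248). ZNF260, which lacks a KRAB pattern and is known as a partner of GATA4 in heart muscle, rose from 14.1, 11.2 and 13.7 CPM to 15.6, 18.1 and 17.6 CPM. In these 3 genes no 5-azacitidine library overlapped a vehicle library.

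ZNF627 rose by 0.41 ± 0.10 (adjusted p = 0.0115), and ZNF253 by 0.34 ± 0.10 (adjusted p = 0.0313) although its lowest 5-azacitidine library did not exceed its highest vehicle library. ZNF100 rose by 0.34 ± 0.11 (adjusted p = 0.0490), a call held in 11 of 25 alternative settings. Both fallers are rich in GC and lack a KRAB pattern. ZNF628 went from 8.94, 9.502 and 10.6 CPM to 5.998, 7.23 and 6.73 CPM and fell by 0.54 (adjusted p = 0.00687). ZNF580 fell by 0.27 (adjusted p = 0.0470), a call held in 5 of 25 alternative settings, and its exons overlap those of ZNF581.

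Methylation of their promoters in tumours has been described for 12 zinc-finger genes of chromosome 19 listed here, of which 5 reached 100 counts: ZNF132, ZNF154, ZNF331, ZNF382 and ZNF671. With 5-azacitidine alone 0 of the 5 were called by edgeR, a count that the 9.06% of all genes called would also give. ZNF154 stood at 0.0552, 0.327 and 0.169 CPM in vehicle, 0.400, 0.382 and 0.407 CPM with 5-azacitidine, 0.415, 0.440 and 0.330 CPM with the inhibitor and 0.487, 0.532 and 0.337 CPM with the combination. Every treated library lay above every vehicle library, at levels set by few counts. The lowest treated library, at 0.330 CPM, was almost level with the highest vehicle library, at 0.327 CPM. A gene this low in vehicle can pass the filter on low counts through the treated groups, so the separation only describes these data. The log2 fold change was 1.09 ± 0.49 with 5-azacitidine (adjusted p = 0.182), 1.09 ± 0.49 with the inhibitor (adjusted p = 0.0657) and 1.28 ± 0.48 with the combination (adjusted p = 0.0250). The last call was lost without combination replicate 1 or 2 and without vehicle replicate 1 or 3 (adjusted p = 0.0659, 0.0830, 0.148 and 0.0676). ZNF671 stayed between 4.25 and 5.80 CPM in all 12 libraries. ZNF331, which is imprinted in several tissues, had overlapping groups in each of the 5 comparisons of 2 groups.

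With the combination, 17 of the 193 genes rose against vehicle (8.81%, background 29.6%) and 52 fell (26.9%, background 27.5%). The median log2 fold change was -0.068, against 0.0079 over all genes, and 35.8% of the zinc-finger genes were called against 57.1% of all genes. ZNF772 rose most among genes of at least 1 CPM, to 2.57, 2.69 and 3.15 CPM, which is 1.17 ± 0.19 on the log2 scale above vehicle (adjusted p = 8.72e-06). ZNF419, ZNF627, ZNF283, ZNF549 and ZNF554 rose by 0.59 to 0.88. ZNF627 reached 10.8, 12.6 and 10.98 CPM.

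ZNF730 (chr19:23075210-23147221, plus strand) fell most with the combination. It stood at 5.38, 4.69 and 4.57 CPM in vehicle, 3.96, 3.52 and 3.80 CPM with the inhibitor, 4.34, 4.50 and 5.80 CPM with 5-azacitidine and 2.52, 2.38 and 2.39 CPM with both. The combination libraries lay below all 9 others. Against vehicle the log2 fold change was -1.01 ± 0.14 (adjusted p = 1.05e-06), a 2.01-fold lower level, and the gene has no split reads. ZNF566 went from 10.2, 8.97 and 9.40 CPM in vehicle to 5.12, 6.08 and 4.89 CPM, and fell by 0.83 on the log2 scale. ZNF714 reached 19.8, 23.6 and 19.996 CPM, a fall of 0.76 (adjusted p = 1.59e-09). ZNF441, ZNF611 and ZNF726 fell by 0.76, 0.81 and 0.81.

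Of the genes on that list, ZNF43, ZNF91, ZNF675 and ZNF85 fell with the combination against vehicle, by 0.40, 0.39, 0.34 and 0.23 on the log2 scale. ZNF85 had an adjusted p of 0.0359 with overlapping groups, and held its call in 15 of 25 alternative settings. ZNF675 binds TRAF6 and damps its signalling. ZNF93 (log2 fold change -0.13 ± 0.12, adjusted p = 0.361) and ZNF274 (0.04 ± 0.07, adjusted p = 0.672) did not pass the test. ZNF146 went from 130, 129 and 119 CPM to 103, 121 and 104 CPM, and fell by 0.20 (adjusted p = 0.00657), with 1 combination library above the lowest vehicle library.

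Adding the inhibitor to 5-azacitidine gave the widest fall. Here 61 of the 193 genes fell (31.6%, background 25.1%) and 10 rose (5.18%, background 28.7%), and 36.8% were called against 53.8% of all genes. The median log2 fold change was -0.149, against 0.014 over all genes. At 5 CPM or more in vehicle 41.5% of 106 zinc-finger genes fell, against 41.2% of all genes at that level, and 5.66% rose, against 23.3%.

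ZNF441 (chr19:11767000-11784078, plus strand) stood at 5.63, 5.67 and 5.59 CPM with 5-azacitidine and at 2.52, 3.36 and 2.36 CPM with the combination, a log2 fold change of -1.04 ± 0.14 (adjusted p = 6.00e-07). It has no split reads and overlaps no other gene. ZNF730, ZNF566 and ZNF714 fell by 1.01, 0.97 and 0.92. ZNF714 went from 37.5, 41.6 and 40.8 CPM to 19.8, 23.6 and 19.996 CPM. ZNF85, which had risen with 5-azacitidine, went from 18.6, 17.9 and 17.6 CPM there to 10.7, 13.4 and 10.5 CPM with both drugs. The log2 fold change was -0.64 ± 0.09 (adjusted p = 7.97e-07). The rise and this fall are measured on the same 5-azacitidine libraries.

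Genes that rose when the inhibitor was added to 5-azacitidine included ZNF772 (0.92 ± 0.19, adjusted p = 0.000157), ZNF579 (0.41 ± 0.10, adjusted p = 0.000713), ZNF580 (0.39 ± 0.09, adjusted p = 0.000308) and ZNF461 (0.38 ± 0.15, adjusted p = 0.0319). ZNF579 and ZNF580 lack a KRAB pattern and have GC contents of 64.5% and 66.0%. ZNF606, under 1 CPM and named after its values were seen, had the highest log2 fold change, 1.96 ± 0.44. It stood at 0.114, 0.109 and 0.244 CPM with 5-azacitidine and at 0.541, 0.504 and 0.814 CPM with both drugs. These levels rest on few counts. A gene this low with 5-azacitidine can pass the filter on low counts through groups where it is higher.

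**Figure D3:**
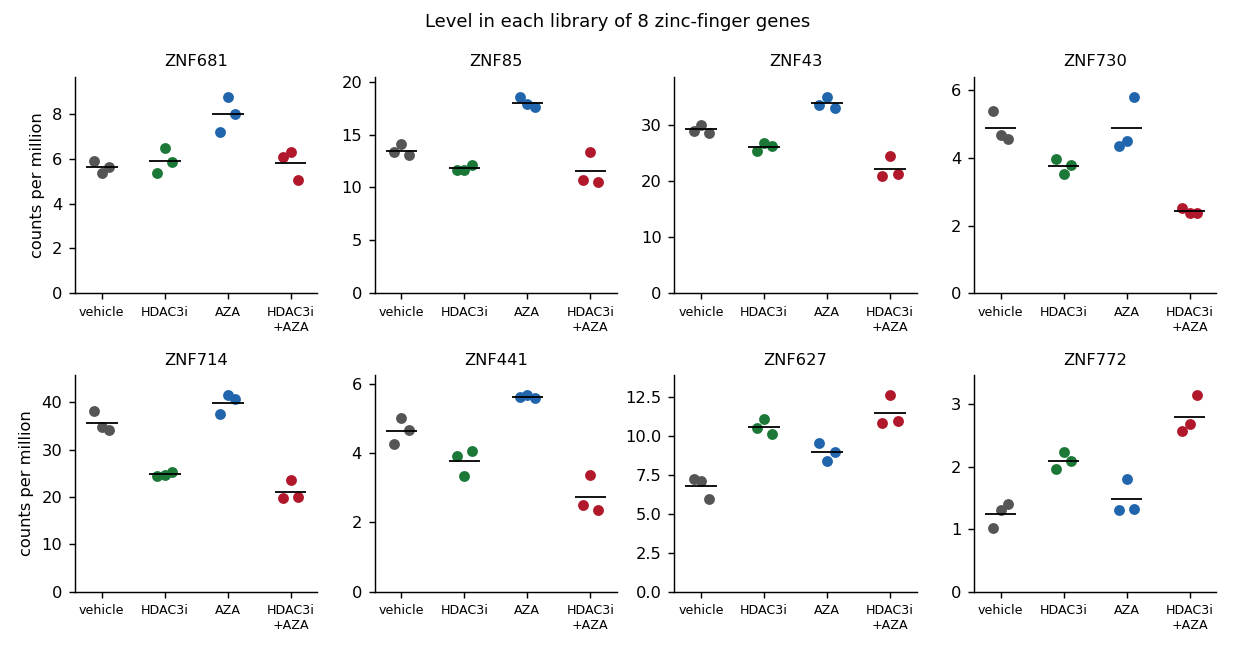
CPM (vertical axis, from 0) of 8 zinc-finger genes in each library, by group (horizontal axis). Points are libraries and lines are means of 3; ZNF681 and ZNF85 are highest with AZA, ZNF730 is lowest with the combination at 2.38 to 2.52, and ZNF772 highest with it at 2.57 to 3.15.

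Adding 5-azacitidine to the inhibitor changed few of the genes. None of the 193 rose (background 4.51%) and 3 fell (1.55%, background 2.83%), with 1.55% called in all against 7.34% of all genes. ZNF730 fell by 0.63 with an SE of 0.15 (adjusted p = 0.00775), from 3.96, 3.52 and 3.80 CPM to 2.52, 2.38 and 2.39 CPM. ZNF507 fell by 0.32 (adjusted p = 0.0453) and ZNF43 by 0.23 (adjusted p = 0.0410), and each held that call in 12 of 25 alternative settings. Without combination replicate 2 the number that fell was 11, and DESeq2 gave 7.

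The interaction is the effect of 5-azacitidine in the presence of the inhibitor minus its effect without it. By edgeR, 0 of the 193 genes had a positive call (background 0.263%) and 1 a negative one (0.518%, background 0.453%), and over all genes 0.716% were called. That gene was ZNF43 (chr19:21804946-21852125, minus strand), a KRAB zinc-finger gene of the pericentromeric cluster. It stood at 29.1, 30.2 and 28.7 CPM in vehicle, 25.4, 26.8 and 26.2 CPM with the inhibitor, 33.6, 35.1 and 33.1 CPM with 5-azacitidine and 21.0, 24.4 and 21.4 CPM with both. No library of one group overlapped another group. The interaction was -0.44 ± 0.10 on the log2 scale (adjusted p = 0.0267). Without combination replicate 2 the number of negative calls was 12, without AZA replicate 1 it was 3, and without any 1 of 9 others (all but vehicle replicate 2) it was 0. Over the 193 genes the median interaction was -0.110, against 0.013 over all genes, and 127 values were below 0.

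The genes of the pericentromeric cluster mostly lay on 1 side of 0 in each comparison. With 5-azacitidine all 29 log2 fold changes were above 0, from 0.0013 to 0.91, with a median of 0.21, and by edgeR 4 rose (13.8%, background 4.31%) and 0 fell. The number of risers was 2 without AZA replicate 2 or 3 or vehicle replicate 1 or 2. With the inhibitor 0 rose (background 26.4%) and 8 fell (27.6%, background 24.9%, and 41.9% among genes of 5 CPM or more), at a median of -0.16, with 23 values below 0. The share that fell was thus near or below its background. The number of fallers was 4 without vehicle replicate 1 and 5 without inhibitor replicate 2, where the median was -0.10. With the combination 0 rose (background 29.6%) and 14 fell against vehicle (48.3%, background 27.5%, and 45.1% among genes of 5 CPM or more), at a median of -0.23, or -0.34 without combination replicate 2. When the inhibitor was added to 5-azacitidine all 29 values were below 0, 19 of the 29 genes fell (65.5%, background 25.1%, and 41.2% among genes of 5 CPM or more), and the median was -0.44. The fallers there were ZNF730, ZNF714, ZNF726, ZNF708, ZNF724, ZNF66, ZNF431, ZNF85, ZNF430, ZNF43, ZNF91, ZNF493, ZNF675, ZNF681, ZNF737, ZNF254, ZNF93, ZNF738 and ZNF682, and 15 of these 19 have split reads. With a correction for GC content and length, the numbers in this cluster became 3 risers with 5-azacitidine, 16 fallers when the inhibitor was added to it, 4 risers and 8 fallers with the combination against vehicle, and 5 fallers with the inhibitor. The medians were then 0.17, -0.28, -0.074 and -0.058. After the correction 25 of the 29 values were above 0 with 5-azacitidine, and 25 were below 0 when the inhibitor was added to it. Both comparisons use the same 5-azacitidine libraries, with opposite sign, so the 2 patterns are not independent. Shares of all genes called under the correction are not given here, so the corrected numbers of calls have no background beside them.

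**Figure D4:**
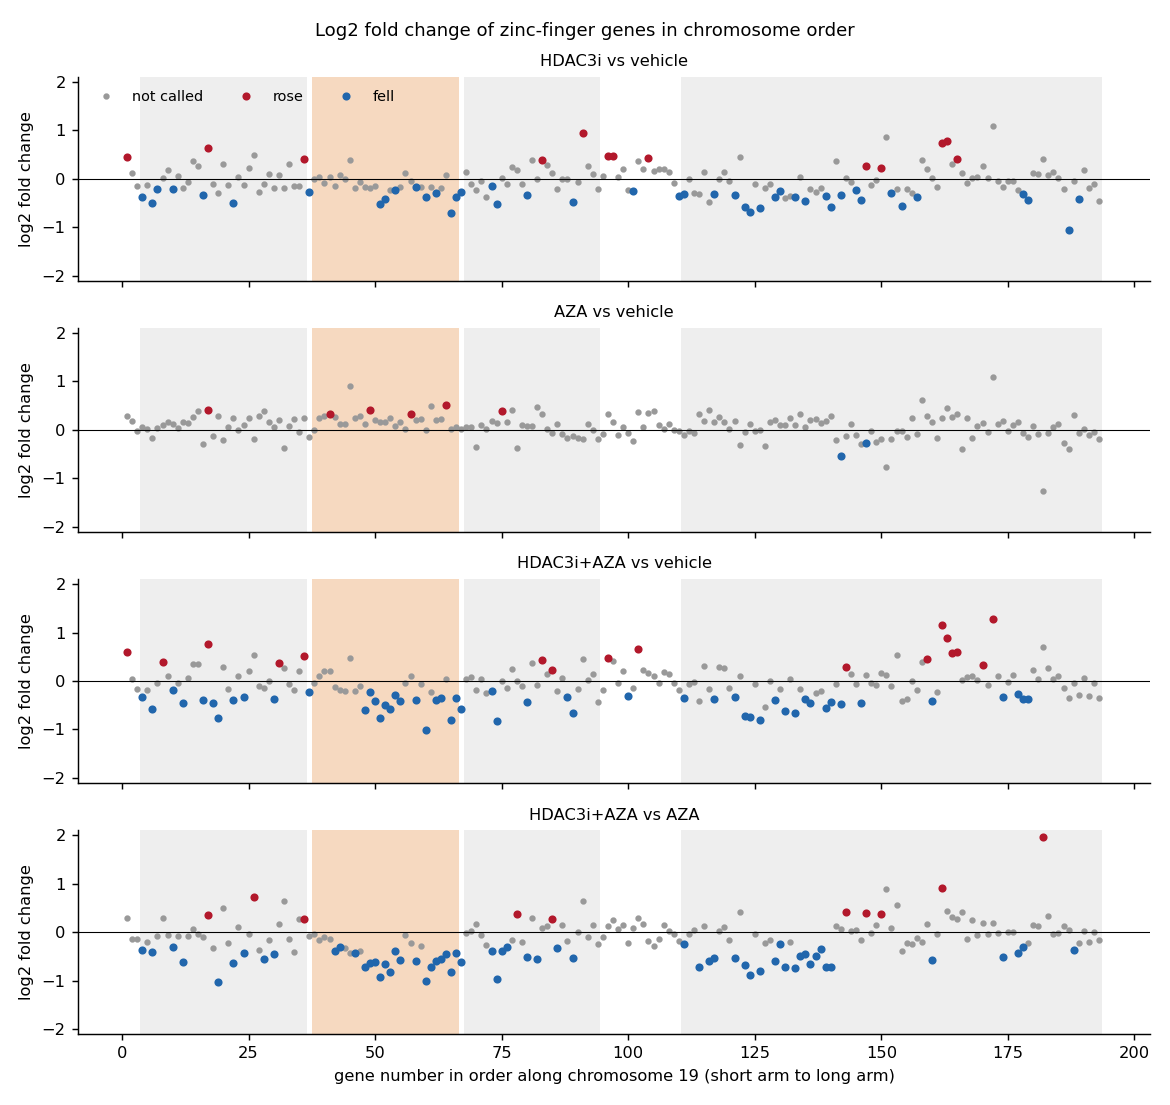
Log2 fold change (vertical axis) of each zinc-finger gene in its order along chromosome 19 (horizontal axis) in 4 comparisons; shading separates clusters, with the pericentromeric cluster in orange. Red and blue points passed the test; in the bottom panel all 29 orange-shaded genes lie below 0, and 19 of them fell.

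The other clusters of more than 3 genes are given side by side. The 33 genes from 7.07 to 12.64 Mb had a median log2 fold change of -0.11 with the inhibitor, where 6 fell (18.2%, background 24.9%), and of -0.093 when it was added to 5-azacitidine, where 9 fell (27.3%, background 25.1%). With 5-azacitidine alone 25 of these 33 values were above 0. With the combination 10 of the 33 fell against vehicle (30.3%, background 27.5%). With the inhibitor 2 of the 33 rose (6.06%, background 26.4%), and 3 when it was added to 5-azacitidine (9.09%, background 28.7%). The 16 genes from 39.98 to 45.08 Mb had a median log2 fold change of 0.18 with the inhibitor. There 3 rose (18.8%, background 26.4%), namely ZNF780A, ZNF780B and ZNF224, and 2 fell (12.5%, background 24.9%). When the inhibitor was added to 5-azacitidine their median was 0.044, and edgeR called 0 of them (background 53.8%). The 27 genes from 34.68 to 37.82 Mb had medians of -0.014 and -0.094 in the same comparisons. Of these 27 genes 4 and 8 fell (14.8% and 29.6%, background 24.9% and 25.1%). In each comparison 2 of them rose (7.41%, background 26.4% and 28.7%). The 83 genes at the end of the long arm had medians of -0.11 and -0.042, with 22 and 24 falls (26.5% and 28.9%), near the background of 24.9% and 25.1%. Within them ZNF611, ZNF701, ZNF808, ZNF813, ZNF160 and ZNF761, named here after their values were seen, fell in both comparisons. Of the 83 genes 5 rose in each comparison (6.02%, background 26.4% and 28.7%). No test of one cluster against another was made.

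The log2 fold changes of the 193 genes followed GC content in most comparisons. Spearman's rank correlation coefficient across the genes was -0.44 with 5-azacitidine against vehicle, 0.45 for the inhibitor added to 5-azacitidine, 0.36 for 5-azacitidine added to the inhibitor, 0.18 for the combination against vehicle and 0.63 for the interaction, but 0.0055 for the inhibitor alone. Over the 16000 tested genes with a GC value the coefficient was -0.19, 0.22, 0.21, 0.12, 0.33 and 0.059 in the same order. The genes are not independent: they share the 12 libraries, their base composition and much of their sequence, so the coefficients describe these data. The comparisons are not independent either. The 5-azacitidine libraries enter with opposite sign in the coefficients of -0.44 and 0.45, and they also enter the interaction. Among the 160 genes with a KRAB pattern alone the coefficient was -0.32 with 5-azacitidine and 0.55 for the interaction.

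The same was seen within quintiles of GC content. In the lowest quintile (27.5% to 42.2%), 67 zinc-finger genes had a median log2 fold change of 0.17 with 5-azacitidine, against 0.061 for 3133 other genes. For the inhibitor added to 5-azacitidine the medians were -0.41 and -0.21, and for the interaction -0.24 and -0.13. In the highest quintile (58.3% to 75.3%), 19 zinc-finger genes had medians of -0.12 with 5-azacitidine and 0.17 for the interaction, against -0.062 and 0.098 for other genes. For the inhibitor added to 5-azacitidine the medians there were 0.020 and 0.115, so the zinc-finger genes lay below the others. Both sets had medians of opposite sign at the 2 ends.

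**Figure D5:**
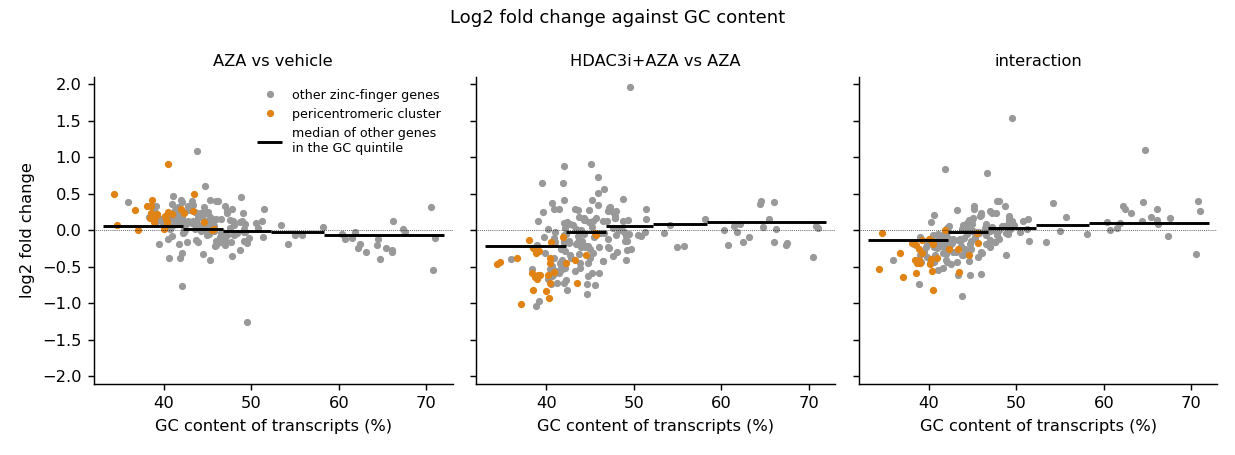
Log2 fold change (vertical axis) against GC content of the transcripts in percent (horizontal axis) for the 193 zinc-finger genes, with the pericentromeric cluster in orange; black lines are medians of other genes in each quintile of GC content. In the lowest quintile the zinc-finger genes have a median of 0.17 with AZA, and of -0.41 and -0.24 in the other panels.

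The slope on GC content varied between libraries of 1 group. Across the 193 genes it was 0.119 and 0.110 log2 units per 10 points of GC in combination replicates 1 and 3 but -0.0315 in replicate 2, and it was -0.0484, -0.146 and -0.0857 in the 5-azacitidine libraries. The vehicle libraries ranged from -0.0174 to 0.0881 and the inhibitor libraries from -0.0373 to 0.0154. All 5-azacitidine slopes lay below those of the vehicle libraries, while the combination overlapped vehicle and inhibitor. Over all genes the order differed: the 5-azacitidine slopes (-0.106 to -0.0503) overlapped vehicle (-0.0598 to -0.0024), and the 3 combination slopes (0.0289 to 0.157) lay above every vehicle and inhibitor library. A correction that removes any smooth trend with GC content and length from each library, whether technical or biological, left the coefficient at -0.31 with 5-azacitidine, 0.082 for the inhibitor added to it and 0.37 for the interaction. It went to 0.12 for 5-azacitidine added to the inhibitor, to -0.17 for the inhibitor alone, and turned to -0.10 for the combination against vehicle. Without AZA replicate 1 and combination replicate 3, and with no correction, the coefficient was -0.48 with 5-azacitidine, 0.43 for the inhibitor added to it and 0.58 for the interaction. The part of base composition in these differences was not tested.

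Other properties of the genes were compared in the same way. The coefficient with the number of zinc fingers lay between -0.19 and 0.037 over the 6 comparisons, and with exonic length between -0.16 and 0.083. The number of CpG sites in the promoter window, whose median was 20 in these genes and 26 in protein-coding genes tested, gave coefficients of -0.26 with 5-azacitidine, 0.33 for the interaction and -0.097 with the inhibitor over the 175 genes with a window. The vehicle level gave coefficients of -0.29 with the inhibitor, -0.34 with the combination and -0.040 with 5-azacitidine; it enters both axes, since vehicle is the control.

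In a list of 29 genes of KRAB repression, heterochromatin and DNA methylation, 20 fell (69.0%) and 1 rose with the inhibitor, with a median log2 fold change of -0.25. The background of fallers was 24.9% over all genes and 41.9% among genes of 5 CPM or more in vehicle, a level that all 29 exceeded. TRIM28, the corepressor bound by KRAB, fell by 0.32 (adjusted p = 1.53e-05), SETDB1 by 0.20 (adjusted p = 0.0115) and CBX5, which encodes an HP1 protein, by 0.38. CHD3, a NuRD remodeller, fell by 0.84. Of the other NuRD genes listed, CHD4, HDAC1 and HDAC2 were not called, at 0.15, -0.094 and 0.10 (adjusted p = 0.0696, 0.0978 and 0.148). DNMT1 was not called either (0.031, adjusted p = 0.660). ATF7IP2, a relative of the SETDB1 partner ATF7IP, rose by 0.44. With 5-azacitidine alone 1 of the 29 rose, CBX3 (3.45%, background 4.31%), and 2 fell, EHMT1 and UHRF1 (6.90%, background 4.75%), shares near the background. With the combination against vehicle 20 fell (background 27.5%, and 45.1% among genes of 5 CPM or more) and 1 rose (background 29.6%). When the inhibitor was added to 5-azacitidine 20 fell (background 25.1%, and 41.2% at that level) and 3 rose (10.3%, background 28.7%). Levels of these genes say nothing of the amount or activity of their proteins.

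ZNF genes of other chromosomes with the same kind of symbol numbered 218. With the inhibitor 46 of them rose (21.1%) and 62 fell (28.4%), against 6.74% and 22.8% on chromosome 19. When the inhibitor was added to 5-azacitidine 21.6% rose and 35.3% fell, against 5.18% and 31.6%. Their median interaction was -0.028, and that of 780 other protein-coding genes of chromosome 19 was 0.098 (779 of them tested), against -0.110 for the zinc-finger genes. These are counts side by side, and the difference between the sets was not tested.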

How the data were processed

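RNA levels were measured in 12 libraries of OCI-Ly7 cells, 3 for each of 4 groups named in the titles. The deposited values are expected counts: per the file headers the authors counted reads over exons with featureCounts 2.1.1 on a release 114 annotation, unstranded, with reads of several places split into fractions and reads over more than 1 gene left out. The tools before counting were bcl2fastq 2.17.1.14, cutadapt 5.1 and STAR 2.7.11b, and the build GRCh38, per the submitters' processing notes.

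Counts were rounded to whole numbers, filtered with filterByExpr and scaled with TMM in edgeR 4.0.16 (R 4.3.3). A single model of the 4 group means covered the 12 libraries and the 17869 genes kept. Its 6 comparisons were tested by quasi-likelihood (two-sided). P-values were adjusted over all genes by Benjamini-Hochberg, with calls made where the adjusted value was under 0.05. CPM values use TMM-scaled library sizes. Library totals were 35947872 to 36337086 counts. GC contents, reading frames and zinc-finger and KRAB patterns come from GENCODE 29 transcripts, in place of the RefSeq proteins first intended, and promoter windows from RefSeq. The alternatives were other scalings, filters and tools (DESeq2 1.42.0, limma 3.58.1), splines of 5 degrees of freedom on GC content and length as an offset, replicate blocks and leaving out libraries. The fits were tested on simulated data. The genes, lists and tests were chosen with earlier results of these data known. Genes to name were taken from those called whose highest group mean reached 1 CPM: the 6 largest rises and 6 largest falls against vehicle, 4 of each against a single drug, 3 of each for the interaction. Added to these were 12 listed for known roles (ZNF677 had too few counts) and the 5 of highest level per length. Others are named as chosen later, and the 2 promoter runs were the most frequent in the pericentromeric windows that share no stretch of 5 letters. Python 3.11.15 with pandas 2.3.3 and matplotlib 3.10.9 was used for tables and figures.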

Additional observations from a re-analysis of the deposited data

Results flagged for a closer look

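ZNF43 was the only zinc-finger gene of chromosome 19 whose response to 5-azacitidine differed between cells with and without the inhibitor by the test of the difference itself. The interaction was -0.44 on the log2 scale (edgeR adjusted p = 0.0267). Its means were 29.3 ± 0.754 CPM in vehicle and 33.9 ± 1.05 CPM with 5-azacitidine (SD, n = 3), and 26.2 ± 0.692 CPM with the inhibitor and 22.3 ± 1.89 CPM with both, so the direction of the 2 differences was opposite. By edgeR the rise with 5-azacitidine alone was not called (0.21, adjusted p = 0.0504). The fall when 5-azacitidine was added to the inhibitor was called (-0.23, adjusted p = 0.0410). The interaction call held in 12 of 24 alternative settings, and with the correction for GC content and length the interaction was -0.30 with an adjusted p of 0.0951. That call was lost in most fits that left out 1 library. Some counts of ZNF43 are split reads, and its GC content is 39.0%.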

How the results depend on the processing

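The 131 values of named genes gave 3212 pairs of a value and an alternative setting. Of these pairs 2988 kept their side of the threshold, 176 lost the call, 48 gained one and 0 were called in the opposite direction. The 131 include values not called in the main fit, which keep their side by staying uncalled. Counts of the 193 genes moved as follows. Shares of all genes called under the alternative settings, here and below, are not given, so these counts have no background beside them. The cause was not tested except that the stricter filter (5 CPM in 3 libraries) tests only 115 of the 193 genes. With the inhibitor, risers were 20 with the GC and length correction and 22 with only the groups compared, and fallers 17 with the stricter filter. With 5-azacitidine, risers were 10 with DESeq2, only the groups compared, the stricter filter, and without the 2 libraries of highest mitochondrial share; fallers were 1 with DESeq2 size factors, library totals, limma voom, the GC correction, only the groups compared, each replicate block and without those 2 libraries. With the combination, risers were 27 with the title-number replicate block and GC correction together, and fallers 34 with the stricter filter. For the inhibitor added to 5-azacitidine, risers were 16 with the GC correction, and the median was -0.081 with it, alone or with the replicate block (-0.0811 and -0.0806). For 5-azacitidine added to the inhibitor, fallers were 7 with DESeq2, 11 with the library-name replicate block, and 1 with the GC correction, with it and the block, and without the 2 libraries; risers were 1 in these last 3 settings, with the stricter filter and with the library-name block. Negative interactions were 6 with DESeq2, 5 with no filter, 3 with the stricter filter or the library-name replicate block, and 0 with the GC correction, alone or with the block.

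Leaving out 1 library at a time gave 8 to 15 risers and 32 to 49 fallers with the inhibitor, 4 to 10 and 1 to 2 with 5-azacitidine, 9 to 20 and 43 to 53 with the combination, 8 to 11 and 54 to 64 for the inhibitor added to 5-azacitidine, 0 to 1 and 1 to 11 for 5-azacitidine added to the inhibitor (11 without combination replicate 2), and 0 to 12 negative interactions. Risers with the inhibitor were 8 without inhibitor replicate 2 or 3 or vehicle replicate 3, and with 5-azacitidine 10 without combination replicate 2; risers with the combination were 9 without that library.

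Libraries of the same title number had correlations of deviations of -0.205 to 0.359 over 18 pairs, so the numbers are not taken to pair the libraries. Genes under 1 CPM rest on few counts. The interaction was not fitted with only the groups compared, since it uses all 4.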
